A study of Rattus norvegicus with 6 samples.

Results

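The genes examined here were 10 components of the Notch pathway, chosen by name as receptors (Notch1, Notch2), ligands (Jag1, Jag2, Dll1, Dll4, Dlk1), the receptor-modifying enzyme Lfng and the transcriptional targets Hes1 and Hey1. Of these 10 symbols, 9 had a row among the 17327 genes of the count tables, and 8 of the 9 passed the filter on low counts that left 9740 genes for testing. Jag2 was not analysed here, and Dll1 was counted but fell below the filter. All 6 samples came from cultured Schwann cells, which ensheath and myelinate the axons of peripheral nerves, taken from sciatic nerves of adult Wistar rats. Cells at confluence were kept for 18 h in medium with 2% serum and 10 μM of the adenylyl cyclase activator forskolin, and then received either buffer (mock, n = 3) or 10 nM soluble neuregulin 1 beta 1 (NRG1, n = 3) for 6 h in the same medium. Before this starvation both groups had been grown, by the study's methods, in medium with soluble neuregulin 1 beta 1, the same factor as the stimulus. Each of 3 independent cultures gave 1 mock and 1 NRG1 sample with the same replicate number, and the comparison of NRG1 with mock was made within these pairs.

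Notch receptors are transmembrane proteins that are activated by ligands on a neighbouring cell. Ligand binding leads to cleavage by an ADAM protease and then by the γ-secretase complex, and the released intracellular domain enters the nucleus, where it binds the DNA-binding protein RBPJ and switches on repressor genes of the Hes and Hey families. In Schwann cells the pathway is known for promoting the immature state and for opposing myelination.

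Levels are given as CPM, the counts of a gene for every 1000000 counts of its library after TMM normalization. They may be compared between samples but not between genes, because no transcript lengths were used. Gene counts summed to between 6821590 and 15475018 per sample, so that 3 counts, taken as the lowest level the depth could show, corresponded to between 0.19 and 0.44 CPM. The Schwann cell markers Sox10, Ngfr, S100b, Erbb3 and Cdh19 were counted in all samples, and 2 of these 5 were lower with NRG1 by the adjusted p (S100b and Cdh19, with log2 fold changes of -0.58 and -1.10). Their summed level spanned 3055 to 6814 CPM in mock and 2795 to 6243 CPM in NRG1 samples, and was lowest in replicate 1 in both groups. Sox10, for example, was at 395.9, 1091 and 1175 CPM in mock replicates 1, 2 and 3, whereas Cdh19 was not lowest in mock replicate 1. In bulk samples such as these, fewer cells of a type and less RNA per cell cannot be told apart. The replicate 1 culture stood apart from the others, with fibroblast and mural cell transcripts in both of its samples. Dcn was counted 4574 and 3203 times in mock and NRG1 replicate 1 and not at all in the other 4 libraries, and Acta2 13567 and 13836 times against 7 to 31. The summed fibroblast list (6 genes, of which 2 were tested and 0 called) lay between 13621 and 31023 CPM in mock and between 13414 and 34499 CPM in NRG1 samples. Most of this sum was Col1a1, at 28250, 21494 and 13620 CPM in mock replicates 1, 2 and 3. The sum therefore hides that Lum and Thy1, like Dcn, were at 0 outside replicate 1. The 5 pericyte and smooth muscle genes (3 tested, 0 called) summed to between 316.3 and 3082 CPM in mock and between 226.7 and 3130 CPM in NRG1 samples. Of 7 endothelial markers, 3 (Pecam1, Cdh5 and Cldn5) were at 0 in every sample and the list summed to 10.3 to 15.4 CPM in mock and 6.53 to 9.10 CPM in NRG1 samples, nearly all of it Tek, whose log2 fold change was -0.62 (adjusted p = 0.028). The 7 macrophage markers summed to 3.23 to 10.3 CPM in mock and 3.71 to 8.27 CPM in NRG1 samples, with Ptprc and Adgre1 at 0. The part of this difference between cultures in the results below was not tested, so the results are also given without replicate 1.

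NRG1 stimulated cells had higher levels of the ligands Dll4 and Dlk1 and of Lfng, while neither Notch receptor, nor the ligand Jag1, nor the targets Hes1 and Hey1 passed the threshold. In edgeR's quasi-likelihood test with the replicate number as a block, calls needed a Benjamini-Hochberg adjusted p of 0.01 or lower together with a log2 fold change beyond 1 in either direction. Of the 8 genes tested, of which Dll4 met the filter on low counts only through its NRG1 samples, 3 were called higher and 0 lower, against 1.56% of all tested genes called higher and 1.91% called lower. By the adjusted p alone the same 3 genes passed, where 6.31% of all genes were higher and 5.51% lower. None of the 8 was lower at an unadjusted p under 0.05 either, in edgeR or in DESeq2. Levels were higher in 3 of 3 pairs for 4 of the 8 genes (Jag1, Dll4, Dlk1 and Lfng), as they did for 25.9% of all genes, and for 1 of the 8, the same Dll4, each NRG1 sample lay above each mock sample, as for 10.2% of all genes. Dll4, Dlk1 and Lfng had also been singled out in the study from these same samples, under an annotation for negative regulation of Notch signalling, and their direction is therefore no independent evidence.

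**Figure D1:**
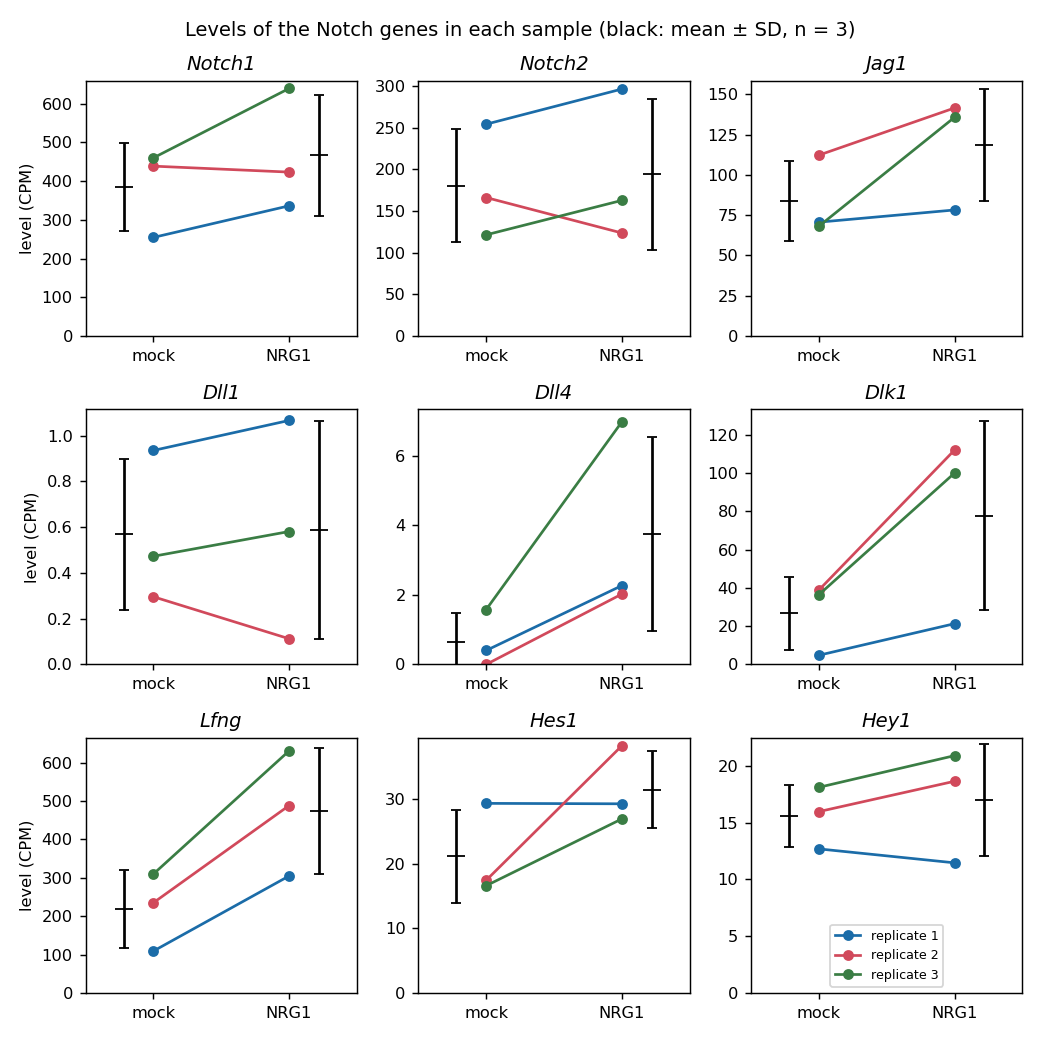
Level of each of the 9 counted genes in CPM (vertical axis, from 0, a different scale in each panel) in mock and NRG1 samples. Coloured lines join the 2 samples of a replicate, and black bars give the mean ± SD over 3 samples. All 3 lines climb for Jag1, Dll4, Dlk1 and Lfng, and they cross or run flat for Notch2 and Hes1.

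Notch1 and Notch2 encode the receptors. Notch1 was counted at 254.5, 438.7 and 460.1 CPM in mock replicates 1, 2 and 3, and at 336.2, 423.4 and 639.3 CPM in the NRG1 samples of the same cultures. It was thus higher with NRG1 in replicates 1 and 3 and slightly lower in replicate 2, and the groups overlapped. The log2 fold change was 0.28 (95% interval -0.01 to 0.56, adjusted p = 0.15 in edgeR). Notch2 was counted at 254.4, 166.3 and 121.5 CPM in mock and at 296.6, 123.7 and 162.9 CPM in NRG1 replicates 1, 2 and 3. Its pairs disagreed in direction, and replicate 1 was the highest sample of both groups. The log2 fold change was 0.08 (95% interval -0.24 to 0.40, adjusted p = 0.74 in edgeR), and it was -0.076 without replicate 3. Without replicate 1 the values were 0.22 for Notch1 and 0.0063 for Notch2 (adjusted p = 0.46 and 0.99). Without replicate 2 they were 0.44 for Notch1 and 0.32 for Notch2 (adjusted p = 0.023 and 0.074 in edgeR), which also missed the threshold. For both receptors the interval lay within 1 on either side, so that a change of 2-fold was outside it.

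The remaining receptors were read from the list of pathway genes. Notch4 had mock levels of 6.68 ± 3.24 CPM and NRG1 levels of 7.45 ± 3.34 CPM (mean ± SD, n = 3 each), with a log2 fold change of 0.16 (adjusted p = 0.61 in edgeR), or 0.13 without replicate 1. Notch3, the receptor of mural cells, was counted 374 and 498 times in mock and NRG1 replicate 1, but only 11 and 1 times in replicate 2 and 8 and 11 times in replicate 3. Almost all of its counts therefore came from the culture that also held Dcn and Acta2, and its log2 fold change of 0.13 (adjusted p = 0.81 in edgeR) turned to -0.68 in DESeq2 with the block. Without replicate 1 Notch3 fell below the filter. None of the 4 receptors passed the test, and with all 3 pairs in edgeR no receptor had an unadjusted p under 0.05. In DESeq2 with the block Notch1 had a log2 fold change of 0.29 (SE 0.14, adjusted p = 0.16). There 6 of the 10 genes, Notch1 among them, were higher at an unadjusted p under 0.05, against 5 in edgeR.

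Jag1, Dll1 and Dll4 encode canonical ligands, which carry the DSL domain that binds Notch. Jag1 was counted at 70.7, 112.3 and 68.2 CPM in mock replicates 1, 2 and 3, and at 78.3, 141.6 and 135.8 CPM in the NRG1 samples. Every NRG1 sample was above its own mock sample, but NRG1 replicate 1 was below mock replicate 2. The ratio within pairs was 1.11, 1.26 and 1.99, and counting error alone allowed 0.98 to 1.25, 1.15 to 1.38 and 1.84 to 2.16, so that the largest difference was that of replicate 3. The log2 fold change of 0.50, with a standard error (SE) of 0.15, had an adjusted p of 0.027 in edgeR and missed the threshold. It was 0.67 (adjusted p = 0.0023) without replicate 1, which would pass the adjusted p but not the fold change threshold, and 0.26 (adjusted p = 0.36) without replicate 3.

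Dll4 had the fewest counts of the 8 genes and the largest fitted fold change in edgeR, though not with shrunken fold changes in DESeq2. It was counted 3, 0 and 20 times in mock replicates 1, 2 and 3, and 17, 18 and 108 times in the NRG1 samples. This corresponds to 0.40, 0 and 1.58 CPM in mock and to 2.27, 2.02 and 6.97 CPM in NRG1 samples, of which the lowest NRG1 sample was above the highest mock sample. The NRG1 level was 5.65 times that of mock in replicate 1 (counting interval 1.64 to 30.1) and 4.42 times in replicate 3 (2.73 to 7.53), and in replicate 2, with 0 mock counts, it was 4.56 times a mock level set at 3 counts, and counting error allowed ratios from 3.34 upward. The fitted log2 fold change was 2.46 (SE 0.42, adjusted p = 0.00087 in edgeR), a value that depends on how the low mock counts are treated and was 1.10 with shrinkage, below the shrunken values of 1.504 for Dlk1 and 1.14 for Lfng. Dll4 met the filter of 1.20 CPM in 3 samples through the NRG1 group, since only 1 mock sample reached it. Without replicates 1, 2 and 3 in turn the log2 fold change was 2.46, 2.21 and 3.32 (adjusted p = 7.6e-07, 0.0013 and 0.0027).

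Dll1 was counted 7, 2 and 6 times in mock and 8, 1 and 9 times in NRG1 replicates 1, 2 and 3, which is at most 1.07 CPM. With counting intervals of 0.36 to 3.69, 0.01 to 7.29 and 0.39 to 4.20 for the ratio within pairs, a difference was not detectable at this depth. In the fit with no filter its log2 fold change was 0.06 (95% interval -1.34 to 1.47).

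Dlk1 encodes a non-canonical ligand that lacks the DSL domain and is also known as Pref-1, a marker of preadipocytes. It was counted at 4.81, 38.9 and 36.5 CPM in mock replicates 1, 2 and 3, and at 21.3, 112.2 and 100.1 CPM in NRG1 samples. The groups overlapped, because NRG1 replicate 1 lay below mock replicates 2 and 3, yet Dlk1 was higher with NRG1 within each pair, by 4.43, 2.88 and 2.74 times. The spread between cultures was the widest of the 8 genes apart from Dll4, with the highest mock level 8.09 times the lowest, against a median of 1.43 over all tested genes. The log2 fold change was 1.62 (SE 0.15, adjusted p = 8e-06 in edgeR), and 1.49 (adjusted p = 1.5e-13) without replicate 1.

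Lfng encodes Lunatic fringe, a glycosyltransferase of the Golgi that extends O-fucose on Notch and thereby alters which ligands activate the receptor. It was counted at 109.0, 235.0 and 309.9 CPM in mock replicates 1, 2 and 3, and at 304.9, 488.4 and 631.0 CPM in the NRG1 samples. Each culture kept its rank, lowest in replicate 1 and highest in replicate 3, and the groups overlapped only in that NRG1 replicate 1 was just below mock replicate 3. The NRG1 level was 2.80, 2.08 and 2.04 times that of mock within pairs, with counting intervals of 2.58 to 3.03, 1.96 to 2.20 and 1.96 to 2.11. The log2 fold change was 1.18 (SE 0.13, adjusted p = 3.3e-05 in edgeR) and 1.04 (adjusted p = 5.6e-07) without replicate 1. Of the 4 other genes for Notch glycosylation, 3 were tested and none passed, with Rfng at a log2 fold change of 0.38 (adjusted p = 0.079), and with Pofut1 and Poglut1 at smaller values.

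**Figure D2:**
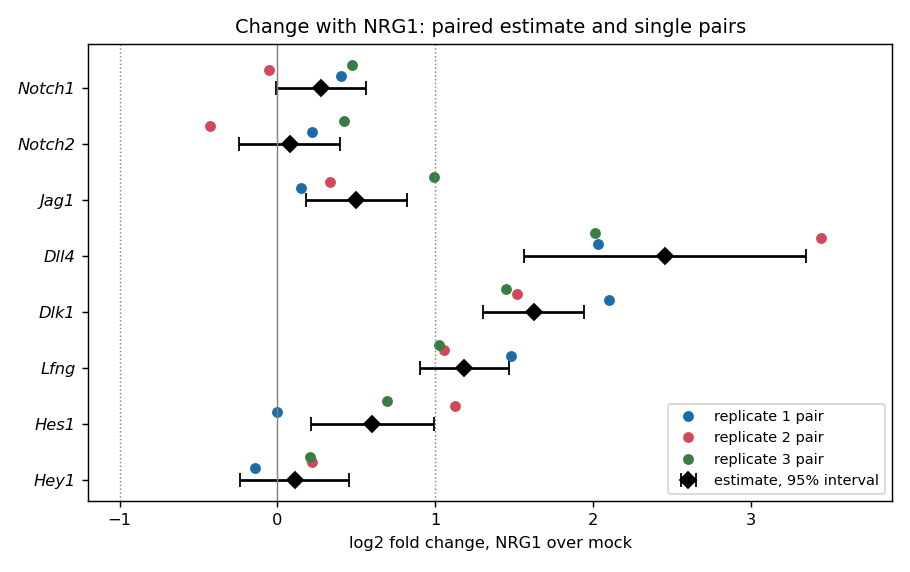
Log2 fold change of NRG1 over mock for the 8 tested genes (horizontal axis, with dotted lines at -1 and 1). Black diamonds with bars are the estimate with the replicate block and its 95% interval, and coloured points are the log2 ratios of the 3 single pairs. Dll4, Dlk1 and Lfng have all points above 1, whereas the points of Notch1, Notch2 and Hey1 lie on both sides of 0. Hes1 has the replicate 1 point at -0.003 and the others above 0.

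Hes1 and Hey1 encode basic helix-loop-helix repressors that are direct targets of Notch, and Hes1 also responds to other signals. Hes1 was counted at 29.4, 17.5 and 16.6 CPM in mock replicates 1, 2 and 3, and at 29.3, 38.3 and 27.0 CPM in the NRG1 samples. It was the same to within counting error in replicate 1, with 220 counts in both samples (ratio 1.00, counting interval 0.82 to 1.21), and higher with NRG1 in replicates 2 and 3, by 2.19 and 1.62 times. The mock level of replicate 1 was above the NRG1 level of replicate 3, and the groups overlapped. Over the 3 pairs the log2 fold change was 0.60 (SE 0.18, adjusted p = 0.029 in edgeR) and missed the threshold. Without replicate 1 it was 0.91 (adjusted p = 0.00027), and without replicate 2 it was 0.36 (adjusted p = 0.15).

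Hey1 was counted at 12.7, 15.98 and 18.1 CPM in mock replicates 1, 2 and 3, and at 11.5, 18.7 and 20.9 CPM in the NRG1 samples. All differences within pairs were small, downward in replicate 1 and upward in the others, and each counting interval included a ratio of 1. The log2 fold change was 0.11 (95% interval -0.23 to 0.46, adjusted p = 0.66 in edgeR), and 0.22 (adjusted p = 0.56) without replicate 1.

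The other genes grouped with the targets in the pathway list, further Hes and Hey genes and Nrarp, behaved unequally. Whether each of them responds to Notch in these cells was not tested. Heyl, the third member of the Hey family, had 6 counts in both samples of replicate 1, but 23 and 89 in mock and NRG1 replicate 2 and 22 and 94 in replicate 3. Its log2 fold change was 1.48 (SE 0.31, adjusted p = 0.0040 in edgeR), which passed, and 1.68 (adjusted p = 9.3e-06) without replicate 1. The call did not hold without replicate 2 or without replicate 3 (adjusted p = 0.029 and 0.078), nor in DESeq2 with the block (adjusted p = 0.065). Within pairs its ratio was 1.00, 2.94 and 3.50, with counting intervals of 0.27 to 3.73, 1.84 to 4.87 and 2.18 to 5.85, so that the few counts of replicate 1 did not allow a difference from the other cultures to be read. Nrarp, an inhibitor that is itself a Notch target, was higher in 3 of 3 pairs with a log2 fold change of 0.59 (adjusted p = 0.058) and did not pass. Hey2 and Hes6 had log2 fold changes of -0.32 and -0.21 (adjusted p = 0.19 and 0.28 in edgeR). Hes5, a main Notch target in other glia, had at most 3 counts in any sample, which does not allow a comparison.

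Since Lfng rose and Hes1 missed the threshold, their promoters and that of Dlk1, which had the smallest adjusted p of the 8 genes, are shown to display where the core of the RBPJ binding site lies. The sequences are those of RefSeq on the GRCr8 assembly, from 250 bases before to 50 bases after the annotated start, on the minus strand at chr12:19152869-19153168 for Lfng, the minus strand at chr11:84212996-84213295 for Hes1 and the plus strand at chr6:134192347-134192646 for Dlk1. GRCr8 is not the assembly on which the reads were counted. Capitals mark TGGGAA, or its complement on the other strand.
Lfng: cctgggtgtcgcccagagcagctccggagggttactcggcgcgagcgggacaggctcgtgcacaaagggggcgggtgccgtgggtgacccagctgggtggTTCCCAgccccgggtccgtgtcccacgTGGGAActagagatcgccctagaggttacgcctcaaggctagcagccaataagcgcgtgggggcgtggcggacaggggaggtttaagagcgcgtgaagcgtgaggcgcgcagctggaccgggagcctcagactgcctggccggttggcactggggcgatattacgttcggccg
Hes1: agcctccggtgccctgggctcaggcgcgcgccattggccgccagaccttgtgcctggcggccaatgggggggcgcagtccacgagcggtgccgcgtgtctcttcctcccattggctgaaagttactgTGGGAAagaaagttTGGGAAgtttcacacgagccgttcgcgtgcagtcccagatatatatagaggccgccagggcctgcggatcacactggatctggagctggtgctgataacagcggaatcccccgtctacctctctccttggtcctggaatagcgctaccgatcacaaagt
Dlk1: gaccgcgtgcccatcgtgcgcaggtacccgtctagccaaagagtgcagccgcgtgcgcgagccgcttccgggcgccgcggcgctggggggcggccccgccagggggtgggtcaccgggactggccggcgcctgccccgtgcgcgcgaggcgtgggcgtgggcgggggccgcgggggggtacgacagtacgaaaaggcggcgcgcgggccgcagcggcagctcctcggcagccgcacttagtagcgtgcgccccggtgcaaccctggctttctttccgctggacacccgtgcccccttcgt

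Both Lfng and Hes1 held 2 copies of TGGGAA, and in both genes 1 copy was part of the longer GTGGGAA, at positions -124 to -118 from the start site. In Hes1 the copies lay on the same strand, the second at -109 to -104, and in Lfng they lay on opposite strands, the second at -150 to -145. The longer match in Lfng overlaps an E-box, CACGTG, at -127 to -122. Among all 33469 promoter windows of the same length, 25.7% held TGGGAA on either strand, 3.85% held 2 or more copies, 6.29% held GTGGGAA and 6.42% held CACGTG. Of the 8 genes with a promoter in the table, Dll1 also had 2 copies, and 1 of them was likewise part of GTGGGAA, at -185 to -179. Notch1, Notch2, Jag1, Jag2 and Dlk1 had none in this window. The promoters of Heyl, Nrarp and Tle3 had no TGGGAA either. The N-box CACNAG, which Hes proteins can bind, occurred 4 times each in Hes1 and Notch1, 2 times in Nrarp, which also held CACGTG, and once in Lfng. Of all windows, 43.1% held it and 11.2% held 2 or more copies. A match of letters is a description, and the windows without one say nothing about binding outside them.

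Beyond the 10 genes, a list of 51 further pathway components was read from the same fit, of which 35 were tested. Of these 35, 2 were higher by the adjusted p, Heyl and Tle3, and 0 were lower, a share close to the 6.31% of all tested genes that were higher. The whole list of 61 genes includes the 10 genes above, and 43 of it were tested in edgeR. Of these 43, 12 were higher and 5 lower at an unadjusted p under 0.05 in edgeR. Such a p was common, reached in either direction by 3479 of all 9740 tested genes. In DESeq2 with the block 10 genes of the list were higher and 3 lower. The median log2 fold change of the 35 genes was 0.09, against -0.03 over all tested genes. Tle3, a Groucho corepressor that acts with Hes proteins, was counted at 101.7, 180.7 and 190.9 CPM in mock replicates 1, 2 and 3 and at 159.0, 222.4 and 316.6 CPM in the NRG1 samples. It was higher in 3 of 3 pairs, with a log2 fold change of 0.56 (SE 0.13, adjusted p = 0.0057 in edgeR). It thus passed the adjusted p but not the fold change threshold, and it missed the adjusted p without replicate 1 and without replicate 3, at 0.024 and 0.064.

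Among the genes for receptor cleavage, for endocytosis and turnover, and for the nuclear complex and its corepressors, the corepressor Tle3 alone passed the adjusted p. Of 9 genes for receptor cleavage, 8 were tested and 0 passed, with log2 fold changes between -0.51 for Psen2 and 0.28 for Furin. The γ-secretase subunits Psen2, Psenen and Ncstn were lower in 3 of 3 pairs without passing (log2 fold changes of -0.51, -0.43 and -0.24, adjusted p = 0.038, 0.030 and 0.16 in edgeR), and Aph1a had a value of 0.14. Of 12 genes for endocytosis and turnover, such as Mib1, Itch and Numb, 9 were tested and 0 passed, with a median of -0.10. The 9 tested genes of the nuclear complex and its corepressors, which include Rbpj and Maml1, had a median of -0.05, and Tle3 was the 1 among them that passed the adjusted p.

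**Figure D3:**
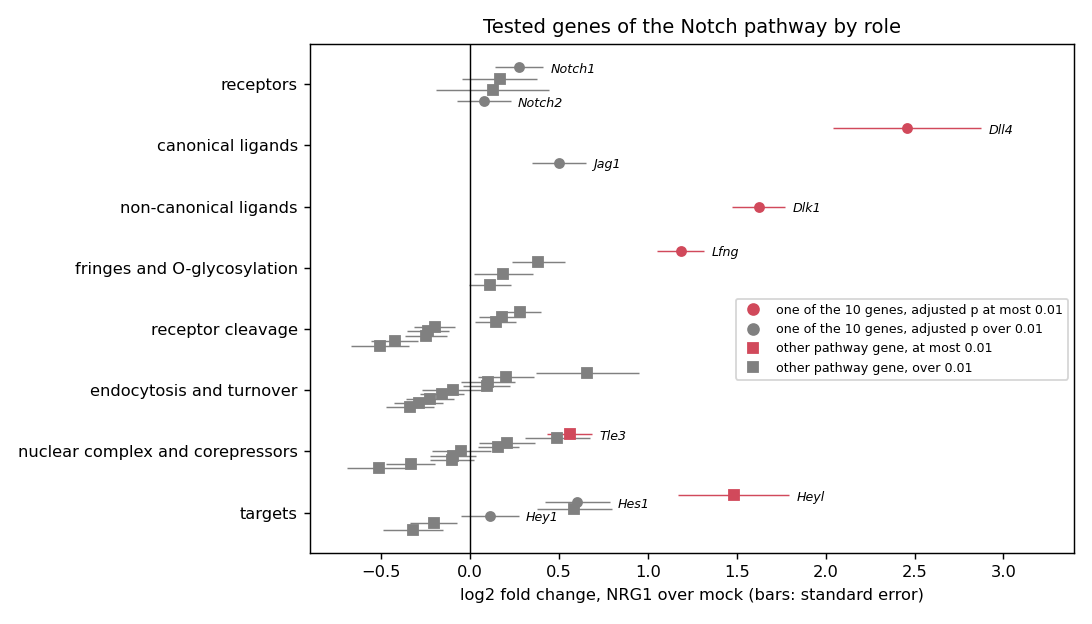
Log2 fold change of NRG1 over mock (horizontal axis, bars are standard errors) for the 43 tested genes of the pathway list, set out by role on the vertical axis. Circles are the 8 tested of the 10 genes examined and squares the other components. Red marks an adjusted p of at most 0.01, reached by Dll4, Dlk1, Lfng, Heyl and Tle3. Receptors, cleavage enzymes and turnover genes stay between -0.51 and 0.66 without a red mark.

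The calls of Dll4, Dlk1 and Lfng rested on the pairing. Without the replicate block none of them passed, with adjusted p-values of 0.37, 0.50 and 0.35 in edgeR, where 1 of the 8 genes, Lfng, had an unadjusted p under 0.05, while their log2 fold changes were 2.36, 1.54 and 1.12. Heyl and Tle3 did not pass without it either (adjusted p = 0.52 and 0.53). The same held for every tested gene, as the smallest adjusted p without the block was 0.14 in edgeR. In that fit 1334 of 9740 genes had an unadjusted p under 0.05. The SD of the 3 pair ratios on the log2 scale was 0.36 for Dlk1 and 0.26 for Lfng, smaller than the SD of their log2 levels among the mock samples, 1.69 and 0.78. For Hes1 the values were 0.57 between pairs and 0.45 among mock samples, and for Jag1 0.44 and 0.40. A ratio carries the spread of 2 samples and a level that of 1, so these values do not show that pairing was of no use. In edgeR the SE was 0.28 without and 0.18 with the block for Hes1, and 0.30 and 0.15 for Jag1.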

How the data were processed

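RNA was measured by poly(A) sequencing (Illumina TruSeq kit) in 3 mock and 3 NRG1 samples, grouped and numbered by the labels. The authors aligned the reads to rn5 using TopHat 2.0.10, assigned them to RefSeq genes using htseq, and deposited the raw counts. The kit as named in the labels does not state strand, so overlapping antisense transcripts cannot be told apart, and between 47.0% and 49.9% of alignments per file were assigned to genes. Intervals on ratios of 2 libraries are exact binomial 95% intervals and cover counting error only.

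The counts of 17327 genes were filtered with filterByExpr (minimum count 10, 9740 genes left), normalized by TMM and tested with edgeR 4.0.16 in R 4.3.3 by a quasi-likelihood fit over all genes. The replicate number was a block, as in the study's paired design. Adjusted p-values are Benjamini-Hochberg values over all tested genes. Log2 ratios of single pairs used a prior count of 2. Across genes, deviations from group means correlated between mock and NRG1 samples of the same number with r of 0.67 to 0.91, and of different numbers with -0.80 to 0.51. The independent cultures come from the study's methods. The script was tested on simulated data. DESeq2 1.42.0 was an alternative.

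The 10 genes, the pathway list and the marker lists were chosen with earlier results of these data known. Named were the 10 genes, all pathway genes at an adjusted p of at most 0.01, Notch3, Notch4, Heyl, Hes5 and Nrarp. Rfng, Pofut1, Poglut1, Hey2, Hes6, Furin, Psen2, Psenen, Ncstn, Aph1a and the marker genes were named after their values were seen. Promoter sequences were matched by symbol for 8 of the 10 genes, with no entry used for Dll4 and Hey1. Some genes of these lists are not reported here.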

Additional observations from a re-analysis of the deposited data

How the results depend on the processing

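Results were recomputed under 15 alternatives. Of 164 recomputed log2 fold changes for 13 named genes (the 10 genes where tested and Notch3, Notch4, Heyl, Nrarp and Tle3, the last 5 added after the data had been seen), 142 kept their direction and their side of an adjusted p of 0.01. Without the replicate block, which the paired cultures call for, 0 genes of the whole table were called higher and 0 lower (1334 genes had an unadjusted p under 0.05 in edgeR), as were 0 of the 10 genes (1 at an unadjusted p under 0.05) and 0 of the pathway list. DESeq2 with no replicate block, added after seeing the data, called 54 genes higher and 34 lower, 0 of them among the 10 genes (3 at an unadjusted p under 0.05) or in the pathway list. With the block, DESeq2 called 139 higher and 123 lower, and 101 and 88 with shrunken fold changes, and Dll4, Dlk1 and Lfng remained called in both. With the fold change threshold inside the test, 13 genes were called higher and 9 lower, with 0 in the pathway list and 0 of the 10 genes, of which 3 had an unadjusted p under 0.05 and Dlk1 came closest (adjusted p = 0.020). Requiring 10 counts in every sample removed Dll4 and Heyl from the test, which left 2 of the 10 genes called and 2 of the pathway list. Leaving out one replicate gave 133 to 202 genes higher and 122 to 299 lower, the lowest of both without replicate 2 and the highest of both without replicate 1, with 3 of the 10 genes called each time and 3 to 4 of the pathway list. Notch2 ranged from -0.076 without replicate 3, a reversed sign, to 0.32 without replicate 2, and Notch3 reversed to -0.68 in DESeq2 with the block. Without a filter Jag1 and Hes1 passed the adjusted p (0.0038 and 0.0026). The causes of these shifts were not tested. Other scalings moved the median of all genes by less than 0.1 on the log2 scale and changed no call of the 10 genes. At this depth Dll1 and Hes5 could not be compared.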
